A study of Mus musculus with 25 samples.

Results

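Activity-regulated immediate early genes are transcribed within minutes of synaptic input, without the need for newly made protein. The 32 genes described here were chosen by symbol as a list of such genes, and 32 of 32 were found among the 23990 genes of the table. The study sequenced total RNA of mouse prefrontal cortex from 25 samples in 6 groups, with 13 male and 12 female samples. Each sex had unstressed controls, mice that went through social defeat with vehicle, and mice that went through social defeat with dihydrocaffeic acid and malvidin-glucoside. The values below come from 5 libraries of 1 group, the stressed males given vehicle (replicates 1 to 5). These were wild-type C57BL/6 mice aged 10 weeks, and vehicle was given from 2 weeks before social defeat until its end. Social defeat exposes a mouse to an aggressor. The columns of this group were recognised because only 1 letter of the column names and only 1 group of the labels run up to the number 5, which reads the letter as the group and the number as the replicate. The other 20 columns could not be tied to a group by name and were not used, so no effect of stress, treatment or sex is given, and no unstressed level stands beside any value.

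In neurons, calcium entering through NMDA receptors and voltage-gated channels activates kinases that phosphorylate CREB and the SRF partner Elk1, and these factors start transcription of the immediate early genes. Many of the products are transcription factors themselves (the Fos, Jun, Egr and Nr4a families and Npas4), others act at synapses (Arc, Homer1, Nptx2), and others switch off the kinases that induced them (the Dusp phosphatases). In cortex their messages are widely used as a record of recent neuronal activity, and several of them are also induced in glia and blood vessels.

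CREB binds the cyclic AMP response element (CRE), so the stretch upstream of the transcription start is shown for 8 members whose patterns between libraries are compared below. Fos, Junb, Egr4, Nr4a1, Dusp1 and Dusp6 were highest in replicate 4, Fosb was highest in replicate 5, and Jun was lowest in replicate 4. RefSeq promoters on GRCm38.p6 were available for 24 of the 32 genes. The 250 bases before each start were searched on both strands for the CRE (TGACGTCA), its core (TGACG, which lies within each CRE), an Egr site (GCGNGGGCG), an AP-1 site (TGANTCA), the NBRE bound by Nr4a proteins (AAAGGTCA), a TATA box (TATAAA) and the CArG box bound by SRF. Capitals mark every match, and bases that the annotation places in an exon are left out.
Fos (chr12:85473640-85473889, plus strand): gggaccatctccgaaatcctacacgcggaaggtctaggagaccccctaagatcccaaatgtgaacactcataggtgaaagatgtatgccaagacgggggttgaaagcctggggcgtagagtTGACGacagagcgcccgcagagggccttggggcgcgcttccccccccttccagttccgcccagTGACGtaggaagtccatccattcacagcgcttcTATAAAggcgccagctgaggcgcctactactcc
Junb (chr8:84978749-84978998, minus strand): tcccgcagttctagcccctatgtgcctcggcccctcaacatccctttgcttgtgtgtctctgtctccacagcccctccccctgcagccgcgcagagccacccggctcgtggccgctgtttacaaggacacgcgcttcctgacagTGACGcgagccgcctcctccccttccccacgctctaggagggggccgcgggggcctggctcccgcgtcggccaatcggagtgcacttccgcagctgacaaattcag
Egr4 (chr6:85513590-85513839, minus strand): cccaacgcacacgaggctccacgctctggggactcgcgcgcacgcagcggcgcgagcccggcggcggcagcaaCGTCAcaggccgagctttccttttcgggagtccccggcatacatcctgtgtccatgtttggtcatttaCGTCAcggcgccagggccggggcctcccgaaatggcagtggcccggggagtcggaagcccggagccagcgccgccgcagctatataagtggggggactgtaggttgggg
Nr4a1 (chr15:101266596-101266845, plus strand): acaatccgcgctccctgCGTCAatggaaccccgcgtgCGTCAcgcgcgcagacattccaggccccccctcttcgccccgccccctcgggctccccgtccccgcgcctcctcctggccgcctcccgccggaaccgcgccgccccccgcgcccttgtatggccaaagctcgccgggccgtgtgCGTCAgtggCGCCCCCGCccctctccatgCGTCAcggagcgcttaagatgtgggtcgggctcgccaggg
Dusp1 (chr17:26508520-26508722, minus strand): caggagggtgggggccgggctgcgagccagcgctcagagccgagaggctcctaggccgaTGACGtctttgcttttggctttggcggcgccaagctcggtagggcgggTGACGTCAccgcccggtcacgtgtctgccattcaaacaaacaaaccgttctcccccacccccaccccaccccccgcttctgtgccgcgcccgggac
Dusp6 (chr10:99262981-99263230, plus strand): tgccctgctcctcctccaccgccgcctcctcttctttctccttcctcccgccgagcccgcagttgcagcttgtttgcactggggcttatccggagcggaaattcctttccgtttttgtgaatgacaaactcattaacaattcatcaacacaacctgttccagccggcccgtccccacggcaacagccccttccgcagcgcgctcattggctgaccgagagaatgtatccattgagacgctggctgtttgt
Fosb (chr7:19310052-19310295, minus strand): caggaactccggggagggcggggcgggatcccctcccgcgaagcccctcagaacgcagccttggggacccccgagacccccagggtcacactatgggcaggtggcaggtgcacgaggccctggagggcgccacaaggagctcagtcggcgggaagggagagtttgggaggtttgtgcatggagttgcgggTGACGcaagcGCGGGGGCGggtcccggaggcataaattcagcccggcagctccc
Jun (chr4:95052223-95052472, minus strand): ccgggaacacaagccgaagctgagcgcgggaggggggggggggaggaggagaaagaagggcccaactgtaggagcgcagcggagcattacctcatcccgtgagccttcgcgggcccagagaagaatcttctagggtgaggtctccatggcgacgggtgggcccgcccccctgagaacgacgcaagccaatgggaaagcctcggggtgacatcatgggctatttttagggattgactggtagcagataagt

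At least 1 CRE core lay in the searched stretch of 18 of the 24 genes, namely Fos, Fosb, Junb, Egr2, Egr4, Npas4, Nr4a1, Nr4a2, Nr4a3, Dusp1, Dusp5, Btg2, Homer1, Maff, Klf4, Ccn1, Atf3 and Rgs2. Some genes have several promoters in the table. Among the 21 members with 1 promoter, 15 held a core (71.4%), against 17.5% of the 22862 genes with 1 promoter. Over all 32851 promoters the share with a core was 17.8%. The whole CRE was found in Dusp1, Btg2 and Maff and in 1.55% of all promoters. An Egr site was found in 9 of the 24 genes and in 8 of the 21 with 1 promoter (38.1%), against 4.47% of all genes with 1 promoter. A CArG box was found in Egr2 and Dusp5 and in 1.47% of all promoters, and a TATA box in Fos, Nr4a2, Gadd45b and Ccn1 and in 12.4% of all promoters. None of the 24 genes searched held an AP-1 site or an NBRE in this window, which 6.75% and 1.34% of all promoters did. The members' stretches were rich in G and C, with a median of 66.4% against 52.0% for all genes with 1 promoter, and the CRE, its core and the Egr site contain CG. The part of base composition in these shares was not tested. Fos has cores 129 and 66 bases before the start and a TATA box at 33, Nr4a1 has 4 cores, and the stretches of Dusp6 and Jun hold no match.

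Reads assigned to genes numbered 34565147 (replicate 4) to 44265039 (replicate 3) per library. These are also the libraries in which members were most often highest and lowest, and the part of depth was not tested. The floor used for a count of 0, 3 reads, corresponds to 0.0673 to 0.0870 CPM (reads scaled to a common library size). These floors cover counting error only. No library was a copy of another, since even the closest pair differed beyond counting error in 5653 genes. Pairs with replicate 4 differed in 6495 to 8807 genes, and pairs with replicate 1 in 5653 to 8807. Replicate 4 stood apart in markers of cortical layers and leptomeninges. The upper-layer neuron markers (Cux2, Cux1, Rasgrf2, Lamp5, Calb1, Rorb) were highest there in 6 of 6 cases, with a summed level of 498.6 CPM against 254.3 to 351.9 CPM in the others. Of 6 deep-layer markers 5 were lowest there (365 against 439 to 527 CPM summed), and 8 of 8 leptomeningeal markers were highest (94.1 against 34.1 to 60.7 CPM). Of all genes tested, 24.9% were highest and 23.7% lowest in replicate 4. For the check of the labelled tissue, markers of excitatory neurons summed to 6945 to 8367 CPM and those of the choroid plexus to 1.83 to 3.57 CPM. Striatal neuron markers summed to 251 CPM (replicate 4) to 328 CPM (replicate 3). They were highest in replicate 3 in 6 of 8 cases, against 19.6% of all genes. Whether the 5 libraries are 5 mice is not stated, so their spread may be partly technical. In bulk tissue, fewer cells of a type and less RNA per cell cannot be told apart.

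Read per kilobase of exon (RPKM), the members spanned a wide range of levels. Egr1, a zinc finger factor of the Egr family, had the highest mean at 45.5 ± 6.77 RPKM (SD, n = 5, as for all means below). Arc, a postsynaptic protein that removes AMPA receptors from the membrane, followed with 37.0 ± 10.3 RPKM, and Ier5 and the secreted pentraxin Nptx2 with 27.9 ± 4.19 and 27.0 ± 3.46 RPKM. At the other end stood Egr2 (0.897 ± 0.345 RPKM), the small Maf factor Maff (0.490 ± 0.171 RPKM) and the stress-induced factor Atf3 (0.201 ± 0.0450 RPKM). The ranges of neighbours in this order mostly overlapped. Of 31 neighbouring pairs, the ranges over libraries overlapped in 30. The only gap lay between Nptx2 (lowest library 24.5 RPKM) and Nr4a1 (highest library 20.1 RPKM). Ranges do not compare genes within a library, and neighbours with overlapping ranges can keep 1 order in every library, as Egr1 and Arc did. By role, the 3 synaptic effectors summed to 77.5 RPKM, the 5 zinc finger factors to 69.0 RPKM and the 6 other rapid response genes to 47.6 RPKM. The 7 AP-1 and related factors summed to 44.2 RPKM, the 7 feedback genes to 44.0 RPKM, and Npas4 with the 3 orphan nuclear receptors to 31.3 RPKM.

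**Figure D1:**
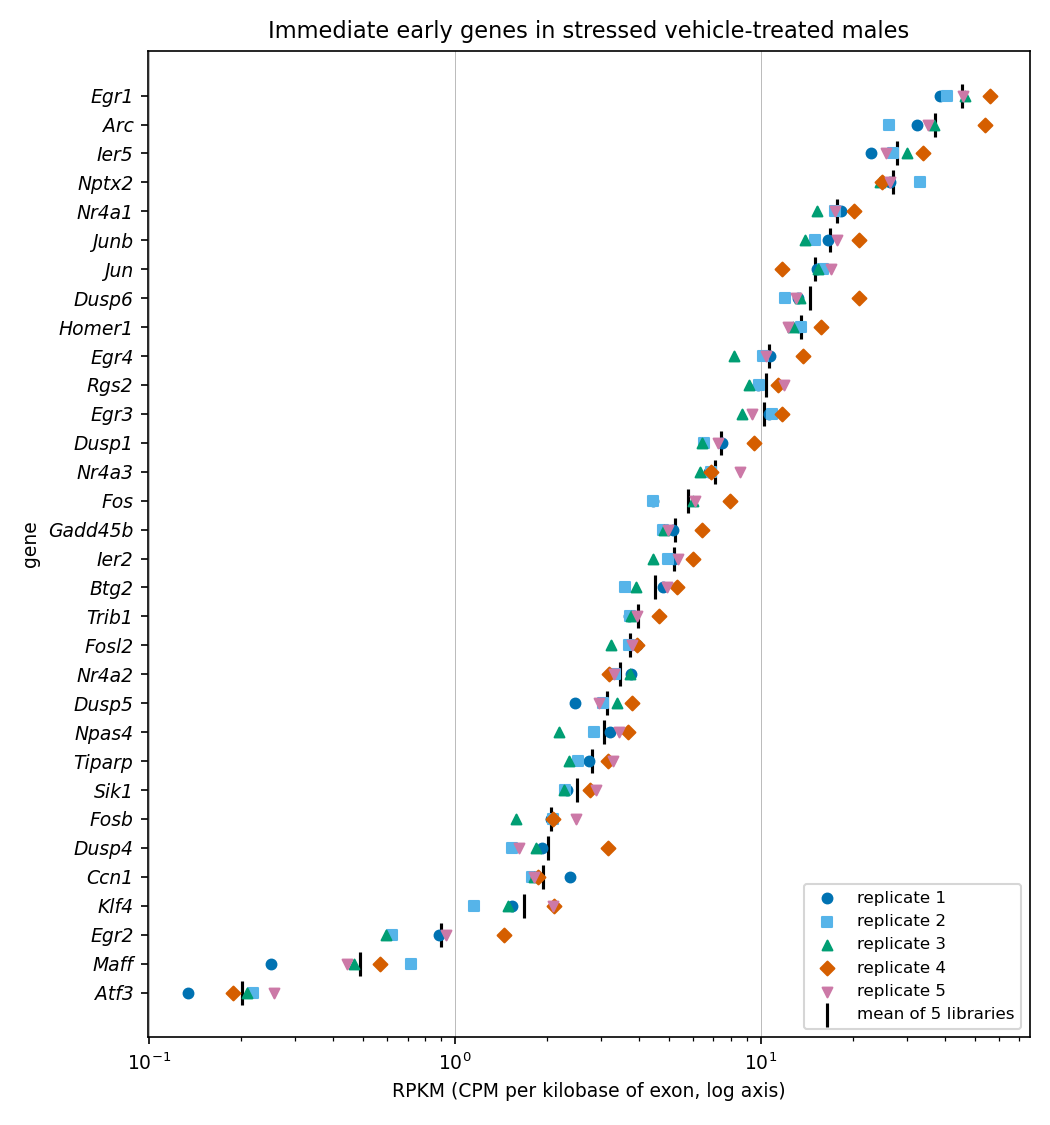
Level of each of the 32 immediate early genes in RPKM (horizontal log axis) in the 5 libraries of stressed vehicle-treated males; symbols are libraries and the vertical stroke is their mean. Egr1 and Arc lie highest, at means of 45.5 and 37.0 RPKM, and the orange diamonds of replicate 4 lie to the right for most genes.

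Whether a gene's reads followed the effective library sizes was asked with a chi-square test, adjusted by Benjamini-Hochberg over the 19239 genes averaging 5 reads or more. All 32 members passed that filter, and 31 of them varied beyond counting error, against 74.4% of all genes tested. At this depth the test calls most genes of these levels, so the sizes of the differences carry more information than the count. The SD of the log2 level was above the running median of genes of like level for 28 of the 32 members, against 49.9% of all genes. The median over members was 1.69 times that running median. Arc had the largest excess (SD 0.38 on the log2 scale, 3.98 times genes of like level), followed by Dusp6 (SD 0.32, 3.29 times) and Fos (SD 0.35, 2.6 times). The exceptions were Nr4a2, Ier2, Ccn1 and Atf3. By Dixon's ratio a single library stood far off the rest in 7 members (21.9%), against 5.24% of all genes. The highest library was at least 1.5 times the lowest in 13 members (40.6%), against 40.1% of all genes, a share near the background. Unlike the SD ratios, this background was not matched for level. The running median of the SD was larger at low levels (0.587 at that of Atf3, 0.095 at that of Arc).

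**Figure D2:**
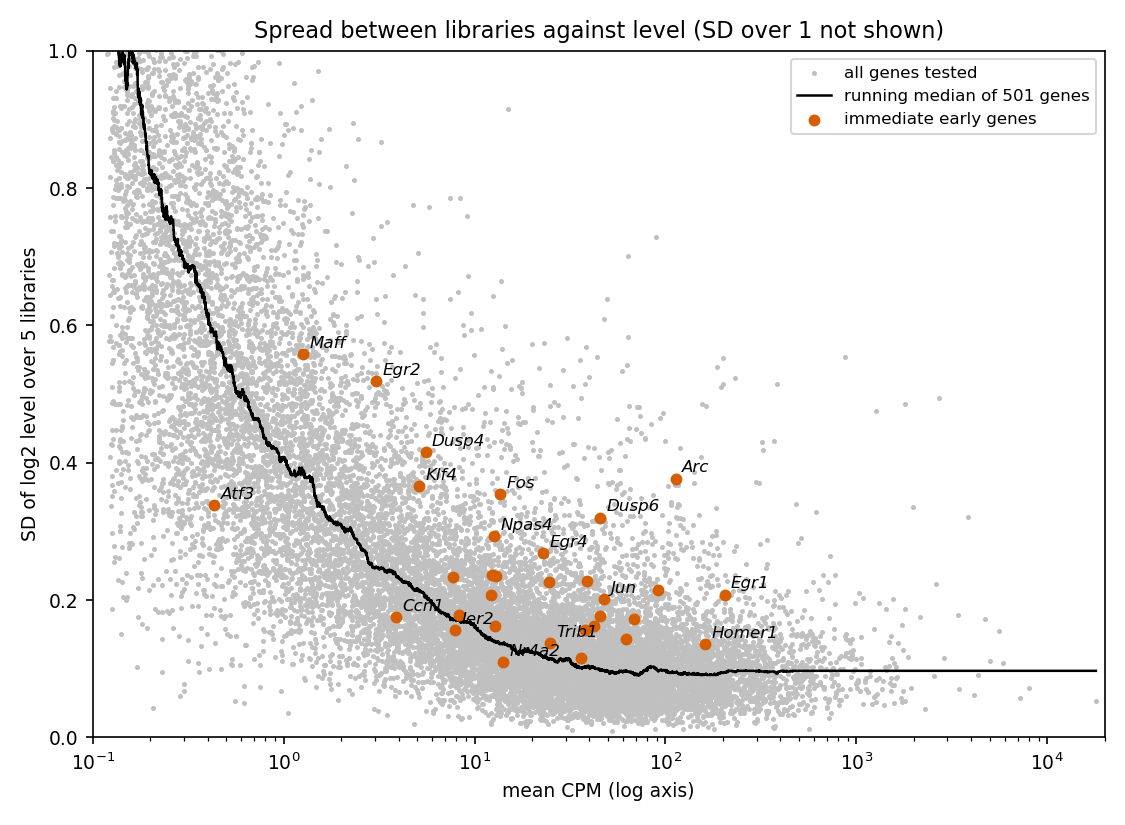
SD of the log2 level over the 5 libraries (vertical axis) against mean CPM (horizontal log axis) for all genes tested (grey), with the running median of genes of like level (line) and the immediate early genes (orange). Arc, Dusp6 and Fos are the members with the largest ratio to the line, at SDs of 0.38, 0.32 and 0.35, Egr2 lies at 0.52, and Atf3, Ccn1, Ier2 and Nr4a2 lie below it.

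The differences had a common direction. In replicate 4 the level was highest for 20 of the 32 members (62.5%), against 24.9% of all genes tested. Another 7 (Fosb, Jun, Nr4a3, Tiparp, Sik1, Atf3 and Rgs2) were highest in replicate 5, a share of 21.9% against 18.4% of all genes. Only Fosl2, Nr4a2 and Ccn1 (9.38%) were highest in replicate 1, against 19.5% of all genes. Nptx2 and Maff (6.25%) were highest in replicate 2, against 17.6%. No member was highest in replicate 3, against 19.6% of all genes, and 15 (46.9%) were lowest there, against 17.2%. Replicates 4 and 5 were both above replicates 1 to 3 in 11 members (Fos, Junb, Egr2, Npas4, Ier2, Btg2, Tiparp, Klf4, Sik1, Trib1 and Rgs2), or 34.4% against 13.1%. On the log2 scale the median difference of replicate 4 from the other libraries was 0.31 over the members and 0.010 over all genes. In replicate 4, 26 of 32 members were above the mean of the others, against 49% of all genes tested. The members not above it were Jun, Nr4a2, Nr4a3, Nptx2, Ccn1 and Atf3.

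**Figure D3:**
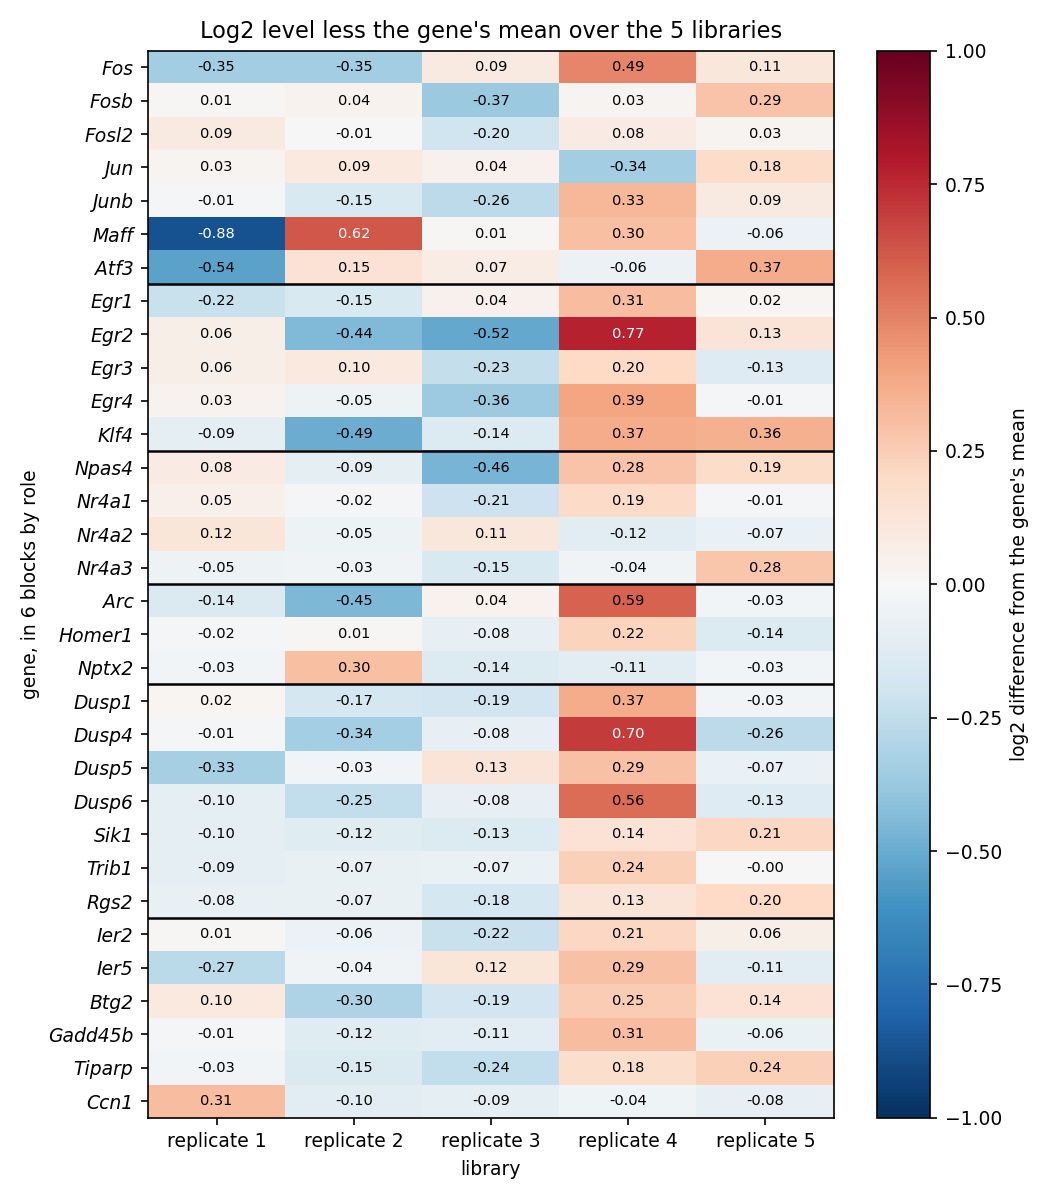
Log2 level of each member less its own mean over the 5 libraries (colour and number), with libraries in columns and genes in 6 blocks by role. Replicate 4 is red for 20 members in which it is the highest library and blue for Jun (-0.34), and replicate 3 is blue for the 15 members lowest there, such as Npas4 (-0.46) and Fosb (-0.37).

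The AP-1 and related leucine zipper factors did not move as 1 block. Fos, which pairs with Jun proteins to form AP-1, stood at 10.4, 10.4, 14.1, 18.7 and 14.4 CPM in replicates 1 to 5 (chromosome 12, 85473890 to 85477273, plus strand, GRCm38). Replicates 1 and 2 were low and replicate 4 was 1.79 times the lowest (adjusted p = 1.44e-25, chi-square test with Benjamini-Hochberg adjustment). Fosb, whose truncated product accumulates with repeated stimulation, stood at 12.9, 13.1, 9.89, 13.0 and 15.6 CPM. Here replicate 3 was low and replicate 5 high, while replicate 4 was level with replicates 1 and 2. The number of Fos reads per Fosb read was therefore 1.43 in both replicates 3 and 4 and 0.796 to 0.923 in the others. Fosl2, a Fos relative, had levels of 38.2, 35.85, 31.4, 38.1 and 36.8 CPM, with replicate 3 lowest and its call lost without that library (adjusted p = 0.296, chi-square test with Benjamini-Hochberg adjustment).

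Junb and Jun differed in opposite directions in replicate 4. Junb was at 38.1, 34.6, 32.1, 48.3 and 40.9 CPM, highest in replicate 4 and lowest in replicate 3. Jun was at 48.5, 50.8, 48.9, 37.5 and 53.9 CPM, and replicate 4 was the low library at 0.742 times the mean of the others (adjusted p = 5.48e-23, chi-square test with Benjamini-Hochberg adjustment). Junb reads per Jun read stood at 1.29 in replicate 4 and at 0.656 to 0.785 in the others. Without replicate 4 the highest library of Jun was 1.11 times its lowest. The exons of Jun and Junb overlap genes on the opposite strand (Junos over 7.28% and Prdx2 over 7.52% of their exon length), and strand use in the counting is not given in the sources used here. Prdx2 had a mean of 148.9 CPM, and its part in the Junb reads was not tested.

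The low members Maff and Atf3 rested on few reads. Maff had 0.650, 1.86, 1.21, 1.48 and 1.155 CPM, from 27 to 71 reads per library, with replicate 1 low. Its call rested on that library (adjusted p = 0.000121 with it and 0.0532 without it, chi-square test with Benjamini-Hochberg adjustment). Atf3 had 0.289 to 0.553 CPM from 12 to 22 reads, and its differences did not pass the test (adjusted p = 0.501, chi-square test with Benjamini-Hochberg adjustment).

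**Figure D4:**
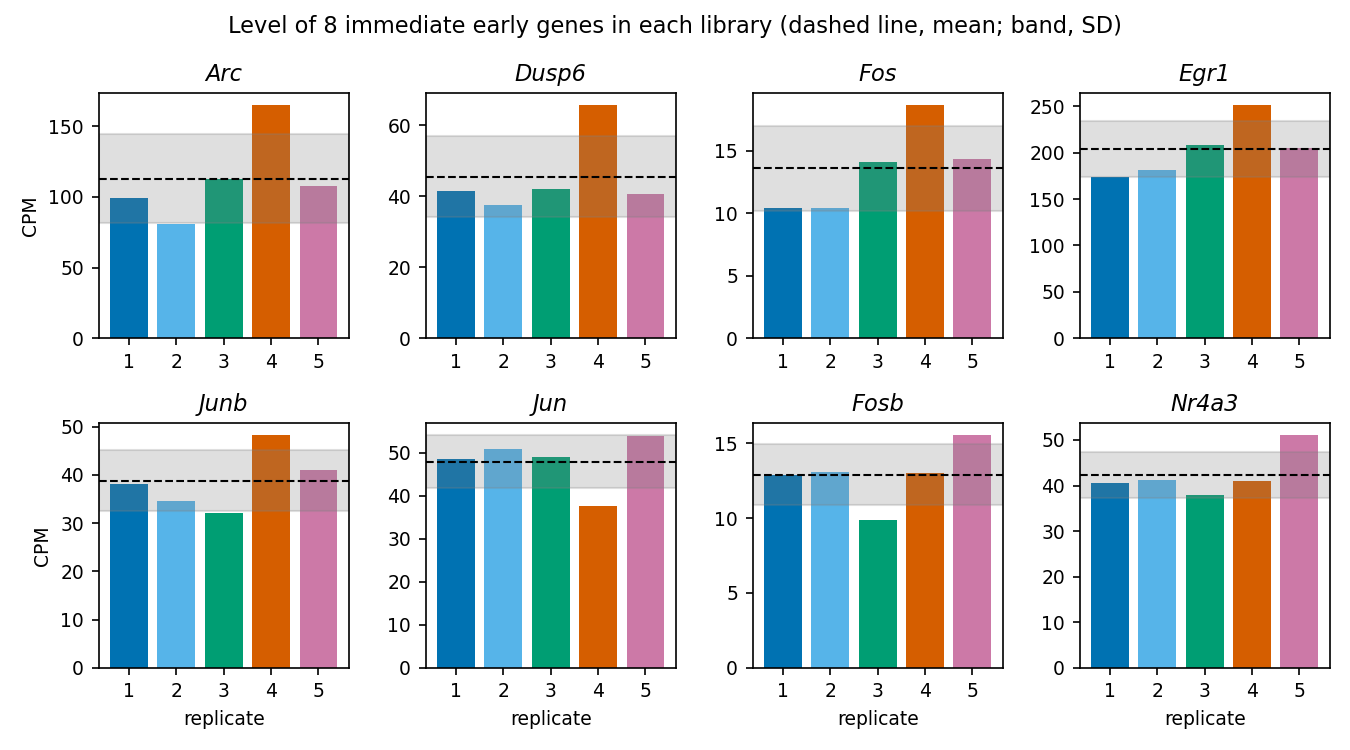
CPM of 8 members in replicates 1 to 5 (bars), with the mean (dashed line) and 1 SD on either side (grey band). Arc, Dusp6, Fos, Egr1 and Junb are highest in replicate 4, Jun is lowest there at 37.5 CPM, and Fosb and Nr4a3 are highest in replicate 5 at 15.6 and 51.1 CPM.

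The zinc finger factors were highest in replicate 4 in 5 of 5 cases. Egr1 stood at 173, 182, 209, 251 and 205 CPM (chromosome 18, 34859823 to 34864984, plus strand), with replicates 1 and 2 low and replicate 4 exceeding the mean of the others 1.31-fold (adjusted p = 2.33e-141, chi-square test with Benjamini-Hochberg adjustment). Its close relative Egr3 stood at 46.9, 48.1, 38.2, 51.6 and 41.1 CPM. In this gene replicates 3 and 5 were low, so that Egr1 reads per Egr3 read ran from 3.70 in replicate 1 to 5.47 in replicate 3. Egr4 was at 23.1, 21.8, 17.55, 29.6 and 22.4 CPM, again lowest in replicate 3. Egr2, also a regulator of myelination in peripheral glia, was at 3.01, 2.12, 2.02, 4.93 and 3.165 CPM, from 81 to 170 reads. Its highest library was 2.44 times the lowest, and 1.57 times without replicate 4. Klf4, a Krüppel-like factor also found in endothelium, was at 4.67, 3.53, 4.53, 6.44 and 6.38 CPM, with replicates 4 and 5 together above the others.

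Npas4 and the orphan nuclear receptors, whose median SD was 0.15 on the log2 scale, differed in how much they varied. Npas4, a neuron-specific factor induced by calcium, was at 13.2, 11.8, 9.08, 15.2 and 14.2 CPM. Replicate 3 was low at 9.08 CPM, and the difference between highest and lowest, 1.68-fold, was 1.57-fold without replicate 4. Its SD of 0.29 on the log2 scale was 2.09 times that of genes of like level. Nr4a1 (Nur77) stood at 64.0, 61.1, 53.5, 70.5 and 61.3 CPM, with the same lowest and highest libraries. Nr4a3 stood at 40.65, 41.2, 37.9, 41.0 and 51.1 CPM, with 4 libraries close together and replicate 5 above them. Without replicate 5 the differences in Nr4a3 did not pass the test (adjusted p = 0.0761, chi-square test with Benjamini-Hochberg adjustment). Nr4a2 (Nurr1), which also marks deep cortical and claustral neurons, was at 15.3, 13.6, 15.2, 13.0 and 13.4 CPM. Its lowest library was replicate 4, and its SD of 0.11 on the log2 scale was 0.808 times that of genes of like level (adjusted p = 0.0160, and 0.0589 without replicate 1, chi-square test with Benjamini-Hochberg adjustment).

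Of the synaptic effectors, Arc varied most. It stood at 99.3, 80.5, 112.5, 165 and 108 CPM (chromosome 15, 74669083 to 74672570, minus strand), with a coefficient of variation beyond counting error of 27.8%. Replicate 4 was 1.65 times the mean of the others (adjusted p = 2.34e-271, chi-square test with Benjamini-Hochberg adjustment), and without it the highest library was 1.40 times the lowest. Homer1, whose short activity-induced form uncouples postsynaptic scaffolds, stood at 159, 163, 153, 188 and 147 CPM, and gene-level reads do not separate the short from the long forms. Arc reads per Homer1 read ran from 0.495 in replicate 2 to 0.878 in replicate 4. Nptx2 (Narp), which clusters AMPA receptors, had another order, with 67.0, 83.8, 62.0, 63.2 and 66.8 CPM. Replicate 2 was its high library, at 1.35 times the lowest, and the other 4 lay close together.

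Among the genes that feed back on kinases and G proteins, 5 of 7 were highest in replicate 4. Dusp6, a phosphatase of ERK, stood at 41.5, 37.5, 42.1, 65.7 and 40.8 CPM (chromosome 10, 99263231 to 99267489, plus strand). Without replicate 4 its highest library was 1.12 times the lowest, and its SD on the log2 scale fell from 0.32 to 0.075. Dusp4 had the same form, with 5.29, 4.21, 5.04, 8.70 and 4.45 CPM, from 161 to 300 reads. Dusp1, induced also by glucocorticoids, was at 24.6, 21.6, 21.3, 31.5 and 23.9 CPM, 1.15-fold from lowest to highest without replicate 4. Dusp5 was at 6.09, 7.53, 8.385, 9.395 and 7.31 CPM, with replicate 1 low. An antisense gene on the opposite strand covers 22.1% of its exon length. Such overlaps took 0.332% of Dusp1 and 5.12% of Tiparp, and no other member's exons overlap another gene.

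Trib1, a pseudokinase that binds ubiquitin ligases, had 23.1, 23.4, 23.5, 29.05 and 24.6 CPM, flat but for replicate 4. The kinase Sik1, which limits the CREB coactivators of the Crtc family, was at 11.96, 11.8, 11.7, 14.15 and 14.8 CPM. Rgs2, which speeds up the switching off of Gq signalling, was at 35.6, 35.8, 33.3, 41.2 and 43.1 CPM. In both Sik1 and Rgs2 replicates 4 and 5 lay together above replicates 1 to 3, with replicate 5 the highest.

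The other rapid response genes had moderate differences. Ier5 stood at 75.3, 88.4, 98.8, 111 and 84.1 CPM, where replicate 1 was lowest and replicate 3 came next to replicate 4. Ier2 stood at 7.94, 7.58, 6.77, 9.105 and 8.19 CPM, and the antiproliferative Btg2 at 13.1, 9.88, 10.7, 14.6 and 13.5 CPM. In both, replicates 4 and 5 were the high libraries. The Ier2 call was lost without replicate 3 (adjusted p = 0.170, chi-square test with Benjamini-Hochberg adjustment). Gadd45b, linked to DNA demethylation in active neurons, stood at 8.23, 7.58, 7.67, 10.2 and 7.91 CPM, and the ADP-ribosyltransferase Tiparp at 11.9, 11.0, 10.3, 13.7 and 14.4 CPM. Ccn1 (Cyr61), a matrix protein of vascular and fibroblast cells, was at 4.81 CPM in replicate 1 and 3.61 to 3.77 CPM in the others. Its call did not hold without replicate 1 (adjusted p = 0.0359 with all libraries and 0.989 without it, chi-square test with Benjamini-Hochberg adjustment).

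Because replicate 4 stood apart in those markers and in many members, the same counts were taken without it. Of the 32 members 26 (81.2%) still varied beyond counting error, against 65.8% of all genes tested in the same way. The calls lost were those of Nr4a2, Ier2, Dusp4, Gadd45b and Trib1, with adjusted p from 0.0503 for Nr4a2 to 0.75 for Gadd45b (chi-square test with Benjamini-Hochberg adjustment). The members highest in replicate 5 then numbered 15 (46.9%), against 25.9% of all genes, and those lowest in replicate 3 again 15, against 24.3%. The 15 high in replicate 5 included Fos, Fosb, Jun, Junb, Egr2, Npas4 and Nr4a3. Arc, Egr1, Ier5, Dusp5 and Dusp6 instead had their highest level of these 4 libraries in replicate 3. The median SD of the members fell from 0.21 to 0.16 on the log2 scale, and for all genes it was 0.18 with and 0.16 without replicate 4. These medians are not matched for level, and no comparison with genes of like level was made without replicate 4.

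The list score, the mean of the members' log2 differences from their own means for the 31 members of at least 1 CPM, was -0.059, -0.095, -0.13, 0.25 and 0.043 in replicates 1 to 5. Another 25 immediate early genes outside the list had scores of 0.087, -0.042, -0.099, 0.079 and -0.025. Of these, 20 varied beyond counting error (74.4% of all genes did), 10 were highest in replicate 4 (24.9% of all genes) and 8 in replicate 1 (19.5%). The clock-linked Bhlhe40 was at 68.2, 59.3, 61.45, 124 and 80.1 CPM, with the same high library as Arc, while the AP-1 member Jund was at 146, 148, 119, 120 and 135 CPM, with replicates 3 and 4 lowest. Zfp36, whose product destabilises messages, was at 3.59, 2.67, 3.05, 2.90 and 1.98 CPM, and Id1, an inhibitor of helix-loop-helix factors, at 9.29, 6.07, 7.51, 8.18 and 7.54 CPM. Both were highest in replicate 1.

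The upstream list, the receptors, channels, kinases and factors that start the response, had scores of -0.068 to 0.065. Of its 32 genes 30 varied beyond counting error, 9 were highest in replicate 4 and 11 in replicate 5, against 74.4%, 24.9% and 18.4% of all genes. The share highest in replicate 4 was thus near the background. The most abundant was the calcineurin subunit gene Ppp3ca with 875, 926, 1104, 1264 and 992 CPM, and the largest SD was that of the NMDA receptor subunit gene Grin2b with 369, 499, 506, 642 and 552 CPM. Creb1 (53.7 to 62.1 CPM) and Srf (68.0 to 77.2 CPM) varied by 1.16-fold and 1.14-fold from lowest to highest. The other factors and coactivators of this list ran from 1.08-fold (Mef2d) to 1.49-fold (Crtc2, lowest in replicate 4). Of 14 late response genes, which follow the early factors, 12 varied beyond counting error and 5 were highest in replicate 4. Their scores lay between -0.061 and 0.044, and the highest was in replicate 2. The secreted Vgf stood at 352, 447, 360, 414 and 394 CPM and Cartpt at 3.66, 3.14, 2.42, 2.73 and 4.77 CPM. Nrn1 was at 142.5, 155, 176.5, 211 and 154 CPM, high in replicate 4 like Arc. Lowest in replicate 4 were 3 of the 14, namely Sst (249 CPM), Tac1 (22.5 CPM) and Plat (18.8 CPM). This is near the background, since 23.7% of all genes were lowest there.

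**Figure D5:**
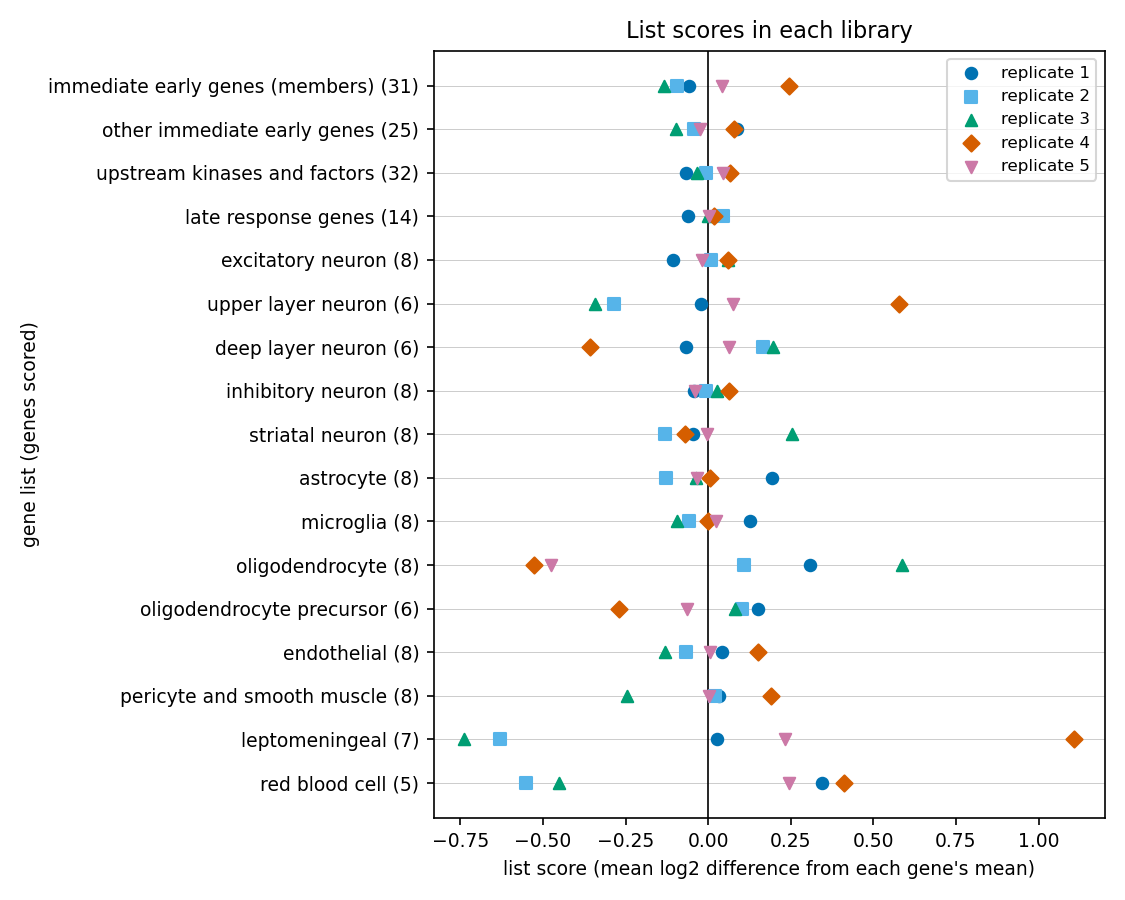
List score (horizontal axis, mean log2 difference of a list's genes from their own means) in each of the 5 libraries, for the members, 3 lists of the same pathway and the marker lists with at least 3 genes of 1 CPM or more. The members range from -0.13 to 0.25, the upper-layer neuron list from -0.34 to 0.58 and the leptomeningeal list from -0.74 to 1.11, and in all of these replicate 3 is lowest and replicate 4 highest.

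Some marker lists moved with the members, and others did so only in part. The scores of the upper-layer neuron list were -0.023, -0.29, -0.34, 0.58 and 0.076, and those of the leptomeningeal list 0.027, -0.63, -0.74, 1.11 and 0.23, so that replicates 4 and 5 were the 2 highest and replicate 3 the lowest in both, as in the members. Endothelial genes were highest in replicate 4 in 5 of 8 cases (272.5 to 332 CPM summed) and pericyte and smooth muscle genes in 5 of 8, against 24.9% of all genes. Red blood cell genes were highest there in 4 of 6 (103 to 193 CPM) and neutrophil genes in 4 of 4 tested (0.628 to 14.2 CPM). Ngp (1.10 CPM in replicate 4, up to 0.289 elsewhere) and Retnlg (0.986 there, up to 0.144 elsewhere) passed the read filter only through replicate 4. For these genes the filter itself favoured replicate 4 as the highest library. The red blood cell scores of 0.345, -0.551, -0.451, 0.411 and 0.246 had replicate 2 lowest, unlike the members. The neutrophil score came from 2 genes that averaged 1 CPM or more only through replicate 4. It was -1.066 in replicate 5, below replicates 1 and 2. The summed level of the pericyte and smooth muscle genes was highest in replicate 1 (221 CPM), with 209.5 CPM in replicate 4. Oligodendrocyte genes were lowest in replicate 4 in 6 of 8 cases and highest in replicate 3 in 8 of 8 (4137 to 9022 CPM). The shares of all genes were 23.7% and 19.6%. The deep-layer list ran the other way from the members, with -0.067, 0.17, 0.20, -0.36 and 0.062. Excitatory neuron (-0.11 to 0.060) and inhibitory neuron scores (-0.043 to 0.064) had narrow ranges. None of the markers found was at 0 in every library, but the neutrophil marker Ly6g was not found among the genes of the table. Under 1 CPM on average were Camp, Ngp, Retnlg, Lum and Slc4a1. The same held for every choroid plexus gene but Kl, with the defining gene Ttr among them. The part of cortical layer, of leptomeninges and blood, or of myelinated or striatal tissue in the members' pattern was not tested. With 5 libraries no correlation across them is given.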

How the data were processed

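The authors deposited 1 table of log2 values for 23990 genes by Ensembl identifier, and 20 of its 25 columns were not used. Per the submitters' processing notes, the tools were STAR 2.6.1d, SAMtools 1.9, featureCounts, Subread 1.6.3 and edgeR, with builds mm10 and GRCm38. The release of the annotation, use of strand and any filter on genes: not given in the sources used here. From the deposited log2 values alone, their form was read as log2 CPM with 0.5 reads added and an effective library size. Setting each column's minimum to 0 reads made 100% of values whole within 1e-06. Reads, CPM and RPKM (union exon length) were computed from these with GENCODE M21 on GRCm38 (23856 identifiers matched), in Python 3.11.15 with scipy 1.17.1, numpy 2.4.6, pandas 2.3.3 and matplotlib 3.10.9.

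The chi-square test (4 degrees of freedom, adjusted p threshold 0.05) was checked on simulated reads. Planned comparisons between groups were not run. The members, the 3 pathway lists and the 15 marker lists were chosen with earlier results of these data known. Values by library are given for members of at least 5 CPM or with a highest library over 2 times the lowest. From other lists, the most abundant and the most variable genes are named. Egr2, Maff and Homer1 have several RefSeq promoters. Nrn1, Sst, Tac1, Plat, Creb1, Srf, Mef2d, Crtc2, Zfp36 and Id1 were chosen from their lists after their values were seen. Alternatives were other library scalings, other numbers of reads added before the log, other filters and leaving out each replicate.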

Additional observations from a re-analysis of the deposited data

Results flagged for a closer look

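In 7 of the 32 members, a single library stood far off the rest (Dixon's ratio), as was so for 5.24% of all genes tested. Chance flags about 1 in 20 groups, or 1.6 of 32 genes, and members that vary together are not independent. In replicate 4 these were Dusp6 at 65.7 CPM, Dusp4 at 8.70 CPM, Trib1 at 29.05 CPM and Gadd45b at 10.2 CPM, each above the others. Nr4a3 stood apart in replicate 5 at 51.1 CPM, Nptx2 in replicate 2 at 83.8 CPM and Ccn1 in replicate 1 at 4.81 CPM. None of 17 list scores was flagged.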

How the results depend on the processing

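The member score was highest in replicate 4 wherever that library was kept. The score in replicate 1 was -0.059, and 0.002 without replicate 4. The members highest in replicate 3 numbered 0, and 5 without replicate 4, and those lowest in replicate 2 numbered 8, and 18 without replicate 3. Members varying beyond counting error numbered 31 with other scalings, filters and added reads, and 26 to 31 with 1 library fewer. The number highest in replicate 4 was 19 to 23, and that lowest in replicate 3 was 15 to 19. The member score in replicate 4 was 0.21 to 0.255. Its SD over libraries, 0.15 with all of them, was 0.075 to 0.17 with 1 library fewer, with the lowest value without replicate 4. Genes varying beyond counting error numbered 11919 to 15862 over all settings. The SD of a single member moved by over 1.5 times in 18 of 160 results with a replicate left out, 10 of them without replicate 4, and in 0 of 224 under the other settings. No paired analysis was possible because the columns of the other groups carry no group name, so the planned fits between groups and with a replicate number were not run. Without replicate 4 the neutrophil list had no gene of 1 CPM and gave no score. Depth limits Atf3 and Maff, with 12 to 22 and 27 to 71 reads per library. P-values measure only the departure from counting error between these libraries. They depend on the number of reads as well as on the size of the spread.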
